A study of Homo sapiens with 6 samples.

Results

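In the RNA-seq libraries of this study, 181 of 58302 genes gave reads in every control library and none in any Smyca knockdown library. They were chosen by their raw counts. A gene was taken when it had at least 1 count in each of the 3 control shRNA libraries, 0 counts in each of the 3 Smyca shRNA #1 libraries, and a place on an autosome, whatever its biotype. The difference between the groups is therefore what chose these genes, and their counts are given below as a description. Where a test of all genes included them, nothing is read from its calls. The mirror rule, at least 1 count in each knockdown library and 0 in each control library, was met by 51 genes. Of the 29133 autosomal genes with at least 1 count in any library, 0.621% were counted only in the control and 0.175% only in the knockdown, a ratio of 3.55 between both sets. These percents stand beside the numbers of genes for orientation, and nothing is read from them. Before the restriction to autosomes 188 genes met the control rule, of which 6 on chromosome X and 1 without an entry in the gene annotation were left out. All 51 mirror genes were autosomal.

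The study asked which genes depend on Smyca, a long noncoding RNA (lncRNA), in cells labelled MDA-MB-231, a line from a triple-negative breast cancer. One group of cells expressed a control shRNA and the other Smyca shRNA #1, and each gave 3 libraries of RNA depleted of rRNA. The paper calls the libraries of a group biological repeats, but the labels do not say that they came from separate cultures, so the p-values below measure only the spread between these libraries. A total of 16501085, 15560192 and 14999307 counts fell on genes in the control libraries, and 15714911, 16388020 and 15788258 in the knockdown libraries. The totals of both groups overlapped (n = 3 each, exact two-sided permutation test, p = 0.5, where 3 against 3 libraries cannot go below 0.1).

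A gene at this level of reads lies at the edge of what sequencing detects, where a transcript may be sampled in one library and missed in the next. Many lncRNAs, antisense transcripts and pseudogenes lie in this range, and so do protein-coding genes of other cell types that a cell line transcribes weakly. A count of 0 does not show that a gene is silent. A true share of up to 3 counts of a library's total is compatible with it, which is 0.182 to 0.2 CPM in these libraries, and this limit covers counting error only.

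The sequence that the knockdown shRNA targets is shown first, since the contrast rests on it. Capitals mark the 7 bases that pair with bases 2 to 8, the seed, of the antisense strand of the shRNA.
Smyca shRNA #1 target: gcatagataggtgGGTGAGTg
A transcript with these 7 bases was annotated for 14 of the 181 control-only genes (7.73%), for 5 of the 51 mirror genes (9.8%) and for 609 of 6988 autosomal genes with 3 to 20 counts over all libraries (8.71%). The whole target was found in a transcript of 0 control-only genes. Matches of the seed were thus about as frequent in both sets as in other genes at the edge of detection, and a match is a description of letters only. Among all autosomal genes with a count they were more frequent, at 18.7% (5437 of 29133). The longest transcript of those genes had a median of 2176 bases, against 891 for the control-only genes.

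Both miRNA genes among the control-only genes are shown by their mature sequence from RefSeq (GRCh38.p14), with the seed, bases 2 to 8, in capitals.
hsa-miR-378h: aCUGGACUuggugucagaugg
hsa-miR-4324: cCCUGAGAcccuaaccuuaa
MIR378H, on the plus strand of chromosome 5 (chr5:154829466-154829486 for the mature sequence), lies inside FAXDC2 on the opposite strand and had 1, 1 and 2 counts in the control libraries. MIR4324, on the minus strand of chromosome 19 (chr19:49308807-49308826), lies inside SLC6A16 on the same strand and also had 1, 1 and 2 counts. Their seeds differ. Libraries of this kind hold fragments of longer RNA, so these counts describe reads over the miRNA genes and not the mature miRNAs. The mirror set held 3 miRNA genes, MIR27B, MIR4512 and MIR196A2, all inside an expressed gene on the same strand.

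The gene that the shRNA targets was read first, as a check of the labels. Smyca is annotated as MIR23AHG (ENSG00000267519) and had 405, 317 and 343 counts in the control libraries against 165, 110 and 85 in the knockdown libraries. Every knockdown library lay under every control library, with normalized CPM of 22.2 ± 2.75 for the control and 7.69 ± 2.51 for the knockdown (mean ± SD, n = 3 each). The log2 fold change of control over knockdown was 1.53 (SE 0.26, edgeR adjusted p = 0.111), short of the 0.05 threshold in this test, and DESeq2 gave 1.51 (adjusted p = 3.96e-05). The adjusted p ranged from 3.96e-05 to 0.44 over the alternatives.

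The labelled cell type was compared with marker genes. All 10 markers of mesenchymal and basal-like breast cells were counted in every library, with VIM at 4942, 3255 and 2305 counts in the control and 1122, 1660 and 1965 in the knockdown libraries. Of 7 epithelial markers 6 were counted in every library too, with EPCAM at 3826 to 5248 counts and CDH1, the gene of E-cadherin, at 1116 to 4864. Of 13 gut and liver markers 7 were counted in every library, with VIL1 the most abundant at 3443 to 7901 counts and HNF4A at 1021 to 3064, while CDX1, AFP and TTR were at 0 in all 6 and ALB at 0 to 4. Of 10 luminal breast markers 6 were counted in every library, with KRT8 the most abundant, while PGR was at 0 in all 6 libraries. High CDH1, HNF4A and VIL1 go against the label MDA-MB-231, which is known as a mesenchymal line with little E-cadherin, and the libraries are therefore called by their labels without taking the cell type from them. None of the control-only genes was among the markers.

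Markers of blood, stromal and neural cells were read as well. Of 6 leukocyte markers only CD14 was counted in every library, PTPRC, the pan-leukocyte marker CD45, was at 0 in all 6, and the list summed to 16, 13 and 27 counts in the control and 6, 11 and 20 in the knockdown libraries. Of 3 red cell markers none was counted in every library, HBB was at 0 in all 6, and the sums were 69, 13 and 0 against 1, 1 and 0, led by HBA1. Fibroblast markers summed to 167, 273 and 44 against 50, 72 and 69 counts, led by THY1, and 2 of 6 were counted in every library. Endothelial markers summed to 154, 123 and 62 against 48, 56 and 89, led by VWF, with KDR at 0 in all 6 libraries. Neural markers summed to 119, 146 and 141 against 142, 135 and 101, led by SYP, with SNAP25 at 0 in all 6. The part of such RNA in the control-only set was not tested.

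The libraries of a group did not stand equally close. For each pair of libraries, genes with at least 20 counts over both were taken, so barely counted genes are not in this measure. The departure of a gene's counts from the share expected from both totals was taken as a chi-square. Its median from counting noise alone is 0.455. The median chi-square was 2.73 between control replicates 1 and 2 and 2.72 between knockdown replicates 1 and 2. Control replicate 3 stood apart, at 10 from control replicate 1 and 7.66 from control replicate 2, beside 6.15 to 8.46 from the knockdown libraries, so it was farther from control replicate 1 than from any knockdown library. Knockdown replicate 3 lay between, at 5.95 and 5.6 from the others of its group. No pair of count columns agreed within counting noise. Without control replicate 3 the rules gave 452 control-only and 152 knockdown-only genes, and without replicate 3 of both groups 738 and 373, an alternative chosen after seeing the data.

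Controls gave reads from more genes at similar depth. At least 1 count was found for 22870, 22703 and 23519 autosomal genes in the control libraries and for 21924, 21695 and 21637 in the knockdown libraries, with no overlap. With every library thinned to the smallest total the expected numbers were 22589, 22598 and 23519 against 21797, 21458 and 21493. Among the 6988 autosomal genes with 3 to 20 counts over all libraries, 65.4%, 63.1% and 70.5% were counted in the control libraries and 56.8%, 54.9% and 53.5% in the knockdown libraries. LncRNAs took 1.15%, 1.1% and 1.42% of the control counts and 1.07%, 0.928% and 0.89% of the knockdown counts. The larger control-only set thus stood beside a wider range of genes counted in each control library, and how far they depend on each other was not tested. In bulk RNA, fewer cells with a transcript and less of it in each cell cannot be told apart.

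**Figure D1:**
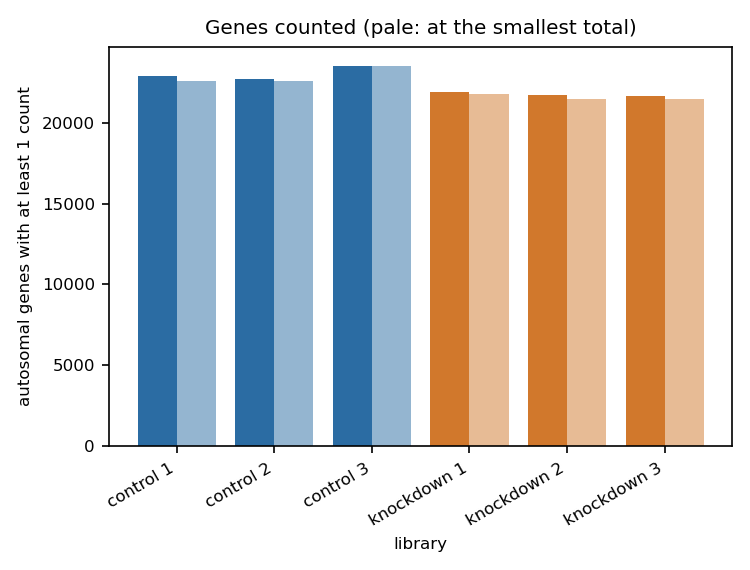
Autosomal genes with at least 1 count in each of the 6 libraries (dark bars for full counts, pale bars for counts thinned to the smallest total). Each control library had more genes than each knockdown library in either form.

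Most control-only genes were barely counted. Their counts summed over the 3 control libraries had a median of 5, and 95 of 181 (52.5%) summed to 3, 4 or 5. Only 27 reached a sum of 10, the highest sum was 460 and the next 22. The mirror genes had a median sum of 4, with 35 of 51 (68.6%) at 3 to 5, 8 at 10 or more, and a highest sum of 91. At least 2 counts in every control library were found for 29 of the 181 and at least 3 for 7, so that 152 rested on a single read in at least 1 control library. All control-only genes together held 656, 565 and 379 counts in the control libraries, and 405, 357 and 378 without the gene of the highest sum. No control library carried the set alone: 45 genes were highest in replicate 1, 32 in replicate 2, 49 in replicate 3 and 55 had no single highest library.

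**Figure D2:**
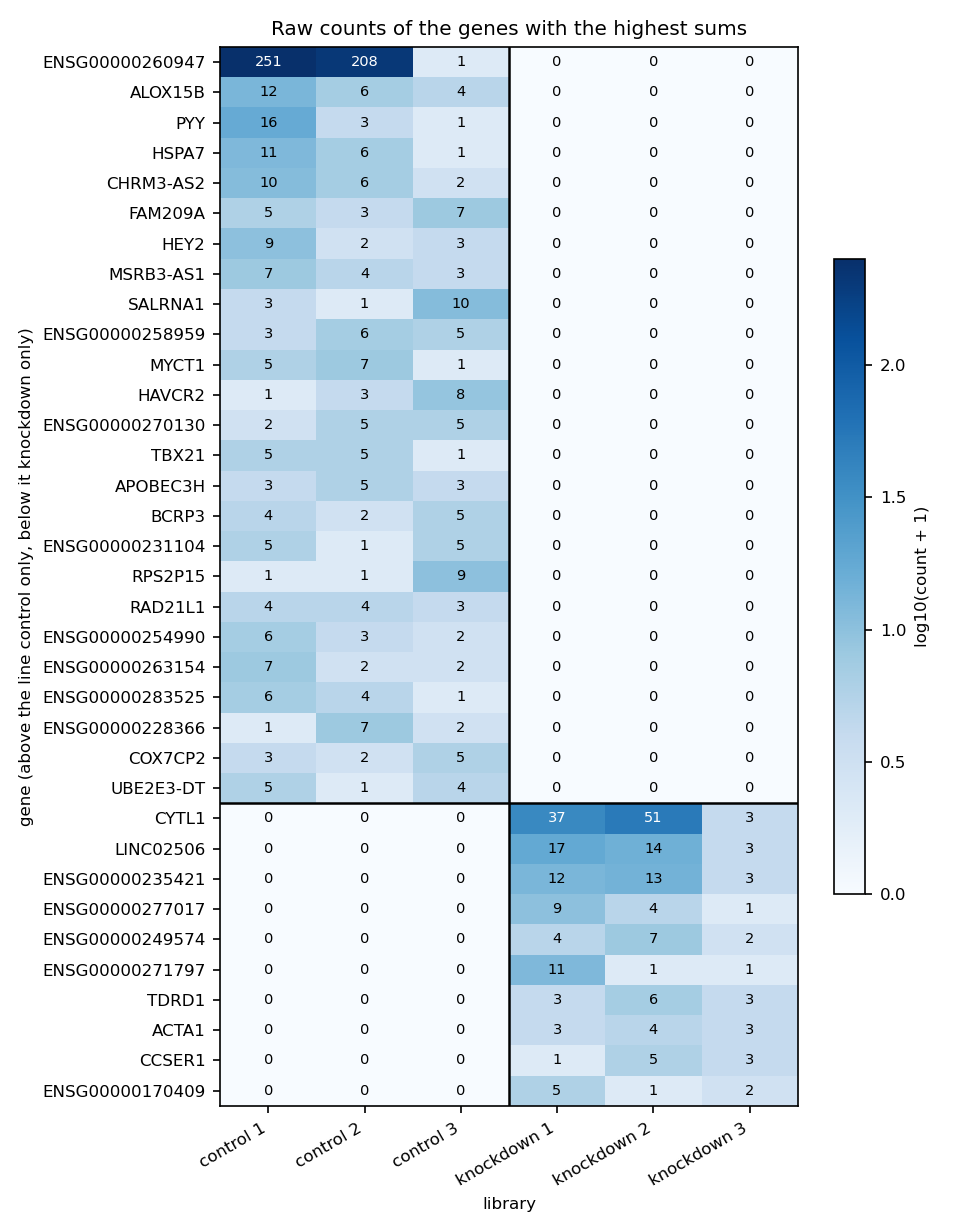
Raw counts of the 25 control-only genes and the 10 knockdown-only genes with the highest sums (rows) in each of the 6 libraries (columns), with the number in each cell and the color on a log10(count + 1) scale. Except for ENSG00000260947, with 251 and 208 counts in control replicates 1 and 2, the control-only genes had at most 16 counts in a library.

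None of the 181 genes passed the filter on low counts, so none was among the 15075 genes tested in the edgeR comparison of both groups, where 0.0265% of genes were called higher in the control (4 genes, ratio of at least 1.5 and adjusted p under 0.05; 2893 genes had an unadjusted p under 0.05). With no filter beyond 1 count all 181 were tested and 5 were called, beside 1.87% of all genes called higher in the control. They were ENSG00000260947, ALOX15B, CHRM3-AS2, PYY and HSPA7, whose p-values are not given because the rule chose them on this same contrast. Of the 51 mirror genes, also chosen on this contrast, 3 were called, CYTL1, LINC02506 and ENSG00000235421, beside 1.14% of all genes called higher in the knockdown. Without control replicate 3 a single control-only gene, ENSG00000260947, passed the filter and was called, beside 6.5% of genes called higher in the control. The 3 mirror genes CYTL1, LINC02506 and ENSG00000235421 passed and were called there too. That fit called 1628 of 15449 genes, 1004 of them higher in the control. With control replicate 1, control replicate 2 or knockdown replicate 3 left out instead, 3 mirror genes were tested and 0 called. With any 1 knockdown replicate left out, 1 control-only gene was tested and 0 called. As the same counts chose the genes, nothing is read from these calls.

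The gene with the highest sum was ENSG00000260947, a lncRNA with a single exon of 3528 bases on the plus strand of chromosome 9 (GRCh38, chr9:33697459-33700986). It had 251 counts in control replicate 1, 208 in replicate 2, 1 in replicate 3 and 0 in each knockdown library. Against a limit of 3 counts over the knockdown group it was at least 156-fold higher in the control, and at least 109-fold and 229-fold higher without control replicate 1 and without replicate 3. Reads were thus plentiful in 2 controls and nearly lacking in the third, which resembled the knockdown libraries here. No other control-only gene had this shape at such counts. The folds given here and below put a limit only on the group with 0 counts. The counts of the other group are taken as exact, and the same counts chose the genes. These folds therefore describe the counts and do not bound the true difference.

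Neighbours of ENSG00000260947 on the same strand followed the same libraries. TRBV26OR9-2, a T-cell receptor pseudogene upstream of it, had 32, 21 and 0 counts. ENSG00000227301, a lncRNA 18703 bases after its end, had 3, 1 and 0 counts, and both were at 0 in every knockdown library. They missed the rule only through control replicate 3. PRSS3, the gene of mesotrypsin, lies 49692 bases after its end on the same strand and was expressed in all 6 libraries, with 1656, 1139 and 450 counts in the control and 500, 490 and 564 in the knockdown. Its log2 fold change was 1.01 (SE 0.38, edgeR adjusted p = 0.205), and over the alternatives it ran from 0.58 without control replicate 1 (adjusted p = 0.545) to 1.36 without control replicate 3 (adjusted p = 0.00653), with an adjusted p of 0.0235 with no filter. PRSS3 was highest in control replicates 1 and 2, while replicate 3 lay under all knockdown libraries.

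**Figure D3:**
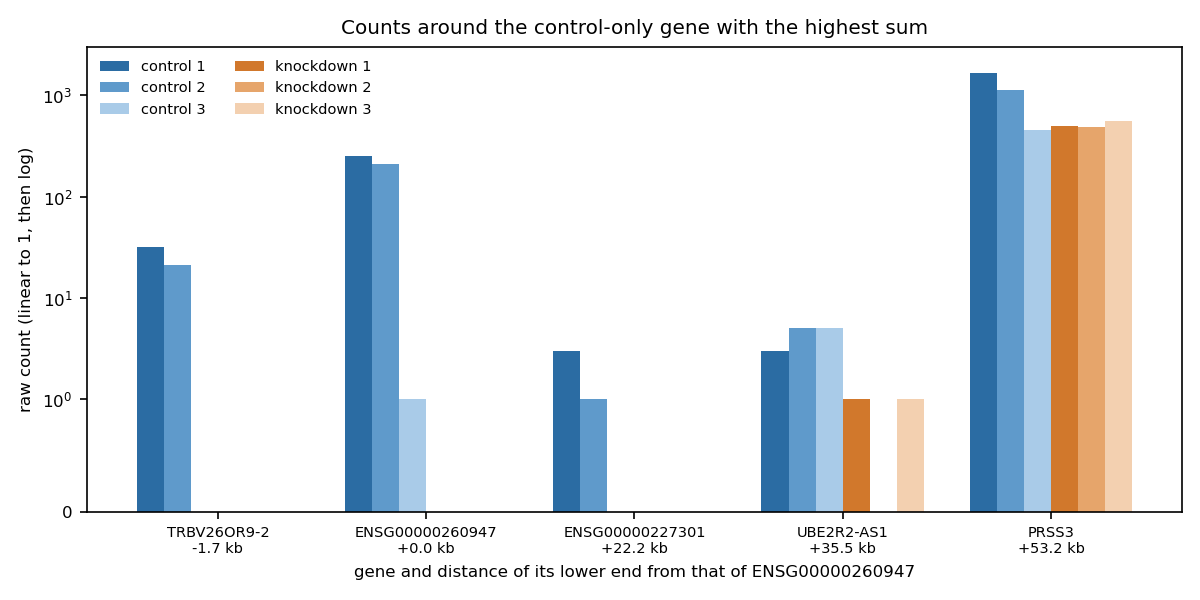
Raw counts (vertical axis, linear to 1 and logarithmic above) in the 6 libraries of ENSG00000260947 and 4 of the counted genes within 60 kb of it, ordered by distance. Bars of control replicates 1 and 2 rise at ENSG00000260947, TRBV26OR9-2 and ENSG00000227301 up to 251 counts, where control replicate 3 had at most 1 and the knockdown libraries 0.

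HSPA7 had 11, 6 and 1 counts in the control libraries, at least 6.11-fold higher than in the knockdown and at least 3.66-fold without control replicate 1. It is a pseudogene of HSPA6, a heat-inducible chaperone of the HSP70 family, on chromosome 1 (chr1:161606291-161608217), and its transcript of 1927 bases was 98.2% identical to that of HSPA6. HSPA6 lies 79397 bases away and had 699, 288 and 15 counts in the control against 6, 1 and 2 in the knockdown libraries. Its log2 fold change was 6.68 (SE 1.34, edgeR adjusted p = 0.111), all control libraries lay above all knockdown libraries, and the adjusted p ranged from 7.76e-07 to 0.44 over the alternatives. The log2 fold change was 5.55 without control replicate 1 and 7.61 without knockdown replicate 1. Counts of HSPA7 and HSPA6 went down in the same order of libraries. With so near a copy, reads of both genes cannot be told apart with certainty.

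Among the 51 protein-coding genes, 9 act in lipid or small-molecule metabolism and transport, with sums of 4 to 22 counts (median 6). The roles were grouped after the genes were known, so their numbers are a description. Their shares among other counted protein-coding genes were not taken, so no role is read as particular to this set. ALOX15B, a lipoxygenase that oxygenates arachidonic acid, had 12, 6 and 4 counts in the control libraries and was at least 7.46-fold higher than in the knockdown. It lies on chromosome 17 (chr17:8039034-8049134), and its nearest expressed gene, ALOX12B of the same family, had 29, 17 and 26 counts against 23, 20 and 18. The ranges of ALOX12B overlapped. The others of this role were PM20D1, BHMT2, FADS6, LIPI, A3GALT2, ABCA9, SLC1A2 and SLCO1C1.

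Immune and inflammatory roles were held by 12 genes with sums of 3 to 12 counts (median 5.5). HAVCR2, the checkpoint receptor TIM-3 of T cells, had 1, 3 and 8 counts in the control libraries. TBX21, the transcription factor T-bet that directs type 1 helper T cells, had 5, 5 and 1 counts. APOBEC3H, a cytidine deaminase that restricts retroviruses, had 3, 5 and 3 counts. These genes are best known from lymphoid cells, and the leukocyte markers are given above. GZMB, the protease granzyme B of cytotoxic cells, had 4, 4 and 1 counts, and GPR84, a receptor for medium-chain fatty acids on myeloid cells, had 1, 6 and 1. IL4, TLR9, CASP1, LST1, FOLR2, DEFB136 and NUGGC had sums of 3 to 6 counts. APOBEC3H lies 9481 bases downstream of APOBEC3G on the same strand, which had 29, 39 and 21 counts in the control against 83, 100 and 26 in the knockdown (log2 fold change -1.26, SE 0.49, edgeR adjusted p = 0.214).

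Genes of germ cells and sperm numbered 7, with sums of 3 to 15 counts (median 5). FAM209A, a membrane protein of the sperm acrosome, had 5, 3 and 7 counts in the control libraries and was at least 5.09-fold higher than in the knockdown. It overlaps RTF2 on the same strand, an expressed gene with 1111 to 1372 counts in the control and 1179 to 1740 in the knockdown. Its paralog FAM209B had 3, 5 and 4 counts against 2, 2 and 2, and their transcripts were 77.5% identical over 666 bases. RAD21L1, a cohesin subunit of meiosis, had 4, 4 and 3 counts and overlaps SNPH on the same strand, which had 78, 75 and 80 counts in the control against 22, 40 and 70 in the knockdown (log2 fold change 0.77, SE 0.42, edgeR adjusted p = 0.349, from 0.43 without knockdown replicate 1 to 1.29 without knockdown replicate 3). SPINK2, a protease inhibitor of sperm, had 1, 7 and 1 counts. IHO1, ADAM21, RSPH6A and TDRP were the others.

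Cell surface, matrix and cytoskeletal proteins were encoded by 8 genes with sums of 3 to 9 counts (median 6.5). KRT84, a keratin of hair and nail, had 3, 2 and 4 counts, FSTL1, a secreted glycoprotein, 1, 3 and 4, and FAT4, an atypical cadherin, 4, 3 and 1. LRRC70 had 3, 4 and 1 counts and overlaps IPO11 on the same strand. The remaining genes of this role, LAYN, VSIG2, MUC12 and SYNPO2, reached sums of 5 at most. Developmental transcription factors numbered 3. HEY2, a repressor downstream of Notch, had 9, 2 and 3 counts, at least 4.75-fold higher than in the knockdown and at least 2.61-fold without control replicate 1, and ASCL3 and MEOX1 had sums of 6 and 4.

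The other 12 protein-coding genes had sums of 3 to 20 counts (median 5.5). PYY, the gut hormone peptide YY, had 16, 3 and 1 counts in the control libraries and was at least 6.78-fold higher than in the knockdown. Without control replicate 1 this value was 2.09-fold. Its annotated 5′ end lies 153 bases downstream of TMEM101 on the same strand, which had 420, 337 and 406 counts against 378, 386 and 437. Most reads of PYY thus came from a single library. MYCT1, named as a target of MYC, had 5, 7 and 1 counts, H2AC4, a core histone H2A gene, 1, 1 and 7, HDGFL1 4, 2 and 2, and SYT5, a calcium sensor of vesicles, 5, 1 and 1.

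Noncoding genes led the rest of the list. CHRM3-AS2, a lncRNA antisense to the muscarinic receptor gene CHRM3, had 10, 6 and 2 counts in the control libraries, at least 6.11-fold higher than in the knockdown, while CHRM3 itself had 87, 71 and 68 counts against 72, 74 and 92. MSRB3-AS1, antisense to MSRB3, had 7, 4 and 3 counts, and MSRB3 had 214, 197 and 392 against 207, 202 and 326. Neither sense gene separated the groups. SALRNA1, named for cell senescence, had 3, 1 and 10 counts. UBE2E3-DT, a transcript divergent from the ubiquitin-conjugating enzyme gene UBE2E3, had 5, 1 and 4 counts. BCRP3, a lncRNA related to BCR, had 4, 2 and 5 counts.

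The unnamed genes among the 25 highest had 10 to 14 counts apart from ENSG00000260947. The cut at 25 fell inside a tie, since GOLGA6FP (2, 6 and 2 counts) and ENSG00000267892 (4, 3 and 3) also had a sum of 10. ENSG00000258959, a unitary pseudogene opposite the dynein heavy chain gene DYNC1H1, had 3, 6 and 5 counts. ENSG00000270130 had 2, 5 and 5 and overlaps CCDC92, ENSG00000231104 had 5, 1 and 5 and lies opposite RAB11FIP2, and ENSG00000254990 had 6, 3 and 2 and lies 2279 bases downstream of ALG9. ENSG00000263154 had 7, 2 and 2 counts. ENSG00000283525, a pseudogene with 6, 4 and 1 counts, has PLAUR, the urokinase receptor gene, as its nearest expressed gene at 19455 bases. PLAUR had 1296, 878 and 476 counts in the control against 288, 269 and 279 in the knockdown (log2 fold change 1.61, SE 0.31, edgeR adjusted p = 0.111), with no overlap and an adjusted p from 7.41e-05 to 0.44 over the alternatives.

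Processed pseudogenes were among the 25 highest too. COX7CP2 had 3, 2 and 5 counts, and its 190 bases were 97.4% identical to the transcript of COX7C, a respiratory chain subunit with 5315 to 5571 counts in the control and 4309 to 5273 in the knockdown libraries. With so near a copy its counts are uncertain, since reads of either gene could have been placed on the other or not counted. RPS2P15, named as a copy of a ribosomal protein gene, had 1, 1 and 9 counts, and ENSG00000228366 had 1, 7 and 2.

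At the edge of the rule, 26 genes had exactly 1 count in each control library, among them KYNUP2, ENSG00000257769, ENSG00000261842, ENSG00000264273 and ENSG00000284709. Just outside it, 283 autosomal genes were counted in every control library and had a single count over the knockdown libraries, against 85 for the reverse. The highest of these sums were 23 for LINC02614 (9, 6 and 8 control counts), 21 for NUP210L (3, 6 and 12), 20 for WFDC10B (8, 10 and 2), 20 for ENSG00000269706 (13, 6 and 1) and 19 for KRT13 (6, 9 and 4). Genes just outside the rule were thus as well counted as the best of those inside it except ENSG00000260947. Against the limit of 3 counts over the knockdown group, the control sums of 155 of the 181 genes gave folds of 1.36 to 156. No fold is given for the 26 at the limit. The counting error of the control sums, which were only 4 for 40 genes, is not in these folds. They do not bound the true difference.

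The highest counts of the mirror set were those of CYTL1, a small secreted protein, with 37, 51 and 3 counts in the knockdown libraries, at least 29.8-fold higher than in the control. LINC02506 followed with 17, 14 and 3 counts and ENSG00000235421, a pseudogene, with 12, 13 and 3. Knockdown replicate 3 was the lowest for these genes, as control replicate 3 was for the leading control-only gene. ENSG00000277017 had 9, 4 and 1 counts, ENSG00000249574 4, 7 and 2, ENSG00000271797 11, 1 and 1, and ENSG00000170409 5, 1 and 2. TDRD1, a protein of the piRNA pathway in germ cells, had 3, 6 and 3 counts, ACTA1, the actin of skeletal muscle, 3, 4 and 3, and CCSER1 1, 5 and 3.

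By biotype the control-only genes were 73 lncRNAs (40.3%, 95% Wilson interval 33.5% to 47.6%), 51 protein-coding genes (28.2%, 22.1% to 35.1%), 41 pseudogenes (22.7%, 17.2% to 29.3%), 14 small RNA genes (7.73%) and 2 others. The mirror genes were 21 lncRNAs (41.2%, 28.8% to 54.8%), 11 protein-coding genes (21.6%, 12.5% to 34.6%), 15 pseudogenes (29.4%, 18.7% to 43%) and 4 small RNA genes (7.84%). A difference between the sets was not tested. Autosomal genes with 3 to 20 counts, a band chosen with the values known, were 40.3% lncRNAs, 24.2% protein-coding, 23.2% pseudogenes and 9.14% small RNA genes. Over all autosomal genes with a count protein-coding genes made up 54.1% and lncRNAs 24.5%. The make-up of the control-only genes was therefore close to that of any barely counted genes.

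Finer classes were small. Processed pseudogenes made up 28 of the 41 pseudogenes, 6 of them copies of ribosomal protein genes. Small RNA genes comprised 6 miscellaneous RNAs, 5 small nuclear RNAs, 2 miRNAs and 1 small nucleolar RNA. By name there were 7 LINC genes, 6 antisense genes and 4 intronic, overlapping or divergent transcripts, and 70 genes had no symbol. The mirror set had 4, 2, 1 and 19 of these. No zinc finger (ZNF) or olfactory receptor gene was in either set, among 525 and 98 counted autosomal genes of these families, and each set had 1 histone gene or pseudogene.

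**Figure D4:**
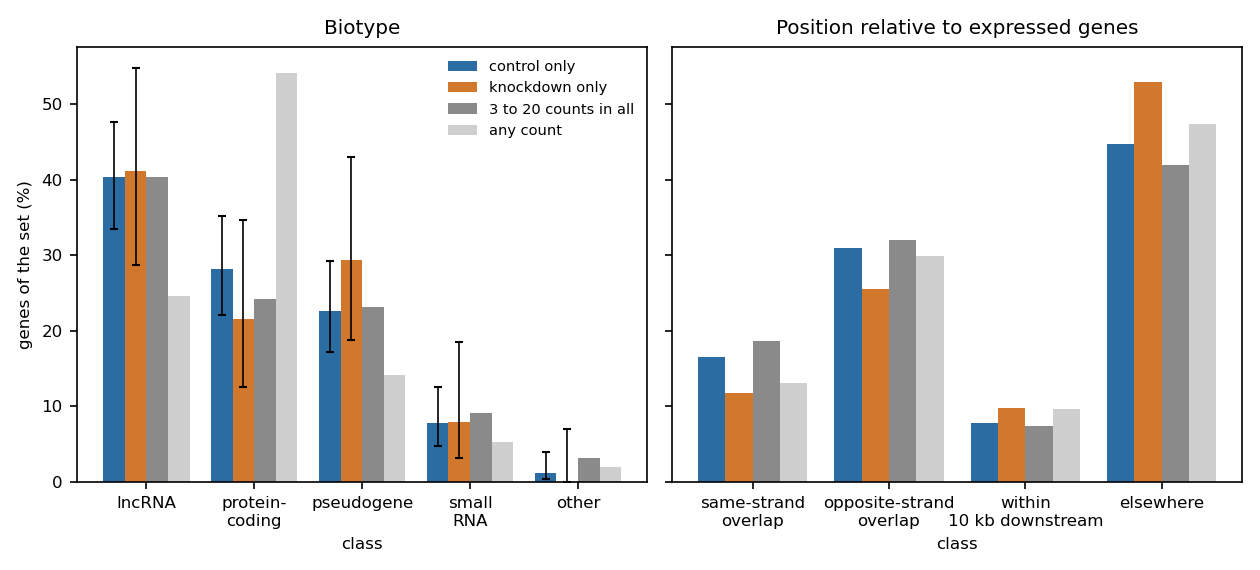
Share of genes (%) by biotype (left, with 95% Wilson intervals for both sets) and by position relative to expressed genes (right) for control-only genes, knockdown-only genes, autosomal genes with 3 to 20 counts in all and autosomal genes with any count. By biotype lncRNAs made up 40.3% of control-only genes, 41.2% of knockdown-only genes and 40.3% of the band of 3 to 20 counts. By position 37.3% of knockdown-only genes overlapped an expressed gene, against 47.5% of control-only genes. The share was 50.6% in the band and 43% over autosomal genes with any count.

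The control-only genes were spread over the autosomes. Chromosome 1 held 22, chromosome 2 17, chromosome 17 14 and chromosome 12 11, and no member lay on chromosome 13, where 606 genes had a count. Relative to the autosomal genes counted, the share ran from 0.254% on chromosome 10 (3 of 1180) to 1.04% on chromosome 18 (5 of 481) among chromosomes with a member. Mirror genes were missing from chromosomes 8, 17 and 18, where 7, 14 and 5 control-only genes lay. Neighbouring members were rare, with 3 pairs under 100 kb apart. These were ENSG00000283525 and IRGC at 15567 bases, FBXW10 and ENSG00000264273 at 80004, and SLCO1C1 and ENSG00000256157 at 91678.

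Overlap with expressed genes, those that passed the filter on low counts, was common. Of the 181 genes 30 (16.6%) overlapped an expressed gene on the same strand and 56 (30.9%) only on the opposite strand, 14 (7.73%) started within 10 kb downstream of an expressed gene on the same strand, and 81 (44.8%) lay elsewhere. The mirror set gave 6 (11.8%), 13 (25.5%), 5 (9.8%) and 27 (52.9%), and the band of 3 to 20 counts 18.6%, 32%, 7.36% and 42%. Exons met exons in 6 of the 30 same-strand and in 25 of the 56 opposite-strand overlaps. The libraries were strand-specific by the study's methods, but whether the counting used the strand is not given in the sources used here. Reads of the opposite-strand overlaps may therefore not be told apart from those of the partner gene. Reads counted for the same-strand overlaps, FAM209A and RAD21L1 among them, may come from the partner gene under either setting. With all annotated genes as partners, 126 of 181 (69.6%) overlapped another gene, and 38 of 51 (74.5%) in the mirror set.

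Expressed partners of control-only genes were read for their own change. On the same strand 32 expressed genes were overlapped, 25 of them higher in the control, with a median log2 fold change of 0.26. On the opposite strand 38 of 60 were higher in the control, with a median of 0.14, and of 14 genes upstream within 10 kb 7 were, with a median of -0.02. Over all 15075 genes tested 8047 were higher in the control, with a median of 0.04. Partners of the mirror genes gave 3 of 7 higher in the control on the same strand with a median of -0.18, 6 of 15 on the opposite strand with -0.13, and 3 of 5 upstream with 0.15. None of these partners was called by edgeR. An unadjusted p under 0.05 was found for 11 of the 32, 12 of the 60 and 4 of the 14, beside 2893 of 15075 genes tested. The genes were chosen on this contrast, so the values of their partners are a description.

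Control-only genes were short like other barely counted genes. Their median exonic length was 1024 bases and their median span 3591, against 944 and 3740 in the mirror set, 936 and 2791 in the band of 3 to 20 counts, and 2771 and 12509 over all autosomal genes with a count. A single exon was annotated for 66 of the 181 (36.5%) and for 19 of the 51 mirror genes (37.3%).

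Promoters from RefSeq, 250 bases before to 50 after a start, matched 51 of the 181 control-only genes and 13 of the 51 mirror genes. The AP-1 site TGANTCA was found on either strand in 6 of the 51 promoters (11.8%), against 7.71% of all 35116 promoters in the table, and the E-box CACGTG in 1 (1.96%) against 7.26%. The hypoxia core ACGTG, which the E-box contains, was in 3 (5.88%) against 21.4%, the TATA box TATAAA in 10 (19.6%) against 11.5%, and a palindromic SMAD site in 0 against 0.202%. The median GC content was 54% with 4 CpG dinucleotides, against 58.7% and 14 over all promoters and 57.3% and 9 in the band of 3 to 20 counts. In that band AP-1 sites were in 8.91%, E-boxes in 6.31%, hypoxia cores in 20.5% and TATA boxes in 13.8% of promoters. Of the 13 mirror promoters 1 had an AP-1 site, 2 an E-box, 4 a hypoxia core and 2 a TATA box, with a median GC content of 60% and 15 CpG dinucleotides. Median CpG was lowest in the control-only promoters, and no test was made of it.

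The 250 bases before a RefSeq start of 2 of the 3 matched genes with the highest sums are shown to let a reader see such promoters; those of PYY overlap exons of protein-coding genes and are not shown. CHRM3-AS2 lies on the minus strand of chromosome 1 (chr1:239719120-239719369) and FAM209A on the plus strand of chromosome 20 (chr20:56524494-56524743). Both windows lie inside the span that GENCODE gives the gene, so the RefSeq start is not the outermost one. Neither held any of these motifs, so no base is in capitals.
CHRM3-AS2: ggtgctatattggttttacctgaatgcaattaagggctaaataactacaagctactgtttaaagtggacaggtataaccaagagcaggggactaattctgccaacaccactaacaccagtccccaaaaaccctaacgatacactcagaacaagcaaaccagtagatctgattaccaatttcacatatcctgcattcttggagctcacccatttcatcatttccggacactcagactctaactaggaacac
FAM209A: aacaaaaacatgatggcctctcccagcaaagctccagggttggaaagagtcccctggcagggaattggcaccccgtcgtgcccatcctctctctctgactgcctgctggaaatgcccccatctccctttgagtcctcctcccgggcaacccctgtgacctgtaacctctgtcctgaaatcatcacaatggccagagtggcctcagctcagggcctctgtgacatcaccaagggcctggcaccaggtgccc
The window of CHRM3-AS2 had 42% GC and 2 CpG dinucleotides, and that of FAM209A 58.8% and 3.

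The FPKM column of control replicate 2 held a further reading. In the other 5 libraries the FPKM and the count of a gene were 0 together for every gene, while in control replicate 2 they parted for 5802 genes. Whole reads could be recovered from this column, with 100% of the lower values whole within 0.02, and summed to 16759253. They lay near the counts of control replicate 3, with a median chi-square of 0.892, and far from the counts of control replicate 2 itself, with 8.29. Which library they came from is not given in the sources used here. In this column 110 of the 181 control-only genes (60.8%, 95% Wilson interval 53.5% to 67.6%) and 30 of the 51 mirror genes (58.8%, 45.2% to 71.2%) had reads, and so had 64.8% of the genes with 3 to 20 counts. A column that the rule had not used thus held reads of more than 50% of the genes of either set, and whether the sets differ in it was not tested. Of the 29 genes with at least 2 counts in every control library 22 had reads there. The control-only genes held 275 reads in it and the mirror genes 49, and ENSG00000260947 had 1.

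The size of both sets followed the rule closely. With at least 2 counts in each library of the counted group, 29 control-only and 6 knockdown-only genes were left, with at least 3 counts 7 and 5, and with at least 5 none in either set. The 7 genes with at least 3 counts in each control library were fewer than 1.5 times the 5 of the mirror set. Allowing 1 count summed over the other group gave 464 and 136 genes. Thinning every library to the smallest total gave an expected 186 and 49.1. Leaving out 1 library gave 337 to 457 control-only and 102 to 176 knockdown-only genes, and the control-only set was the larger in each of these forms of the rule except at 5 counts.

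**Figure D5:**
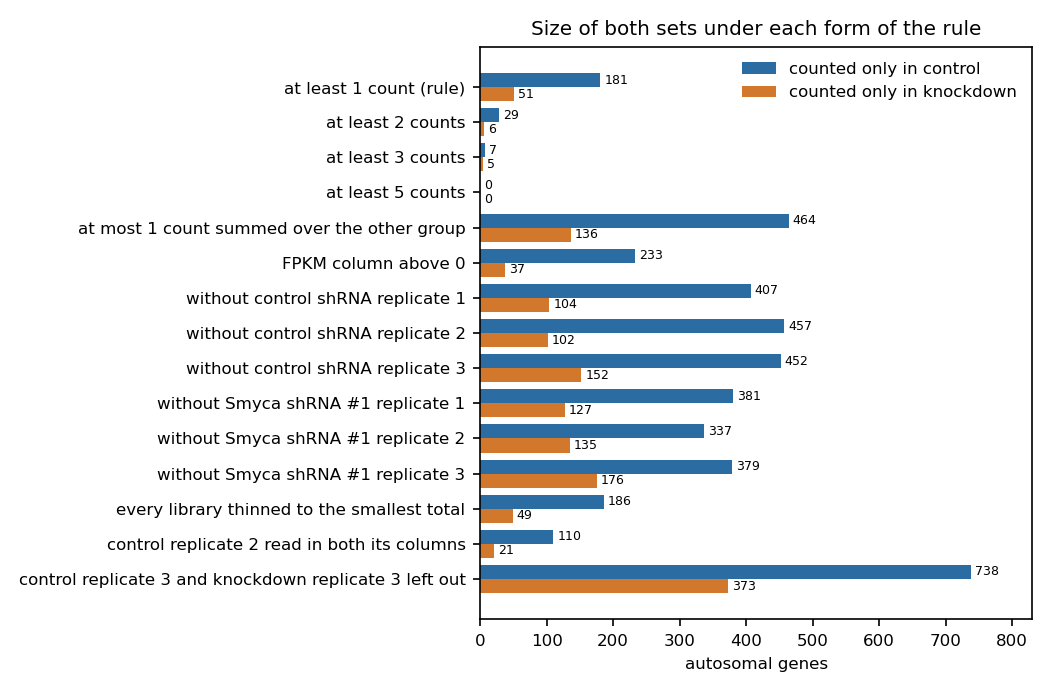
Number of autosomal genes counted only in the control (blue) and only in the knockdown (orange) under the rule, 181 and 51, and under each other form of it. With at least 3 counts in each library 7 and 5 genes were left.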

How the data were processed

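RNA-seq was measured in 6 libraries, 3 with control shRNA and 3 with Smyca shRNA #1. The authors mapped reads to GRCh38 with TopHat2 2.0.12 (submitters' processing notes) and deposited a raw read count for each of 58302 genes. Beside each count the authors deposited an FPKM value, a level per gene length and library total. In control replicate 2 it does not follow the count. FPKM was used to read that library again and as another form of the rule. Totals per library and the limit of 3 counts for a count of 0 are given with the results.

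Genes were matched to GENCODE release 44, which held 57532 of the identifiers. The set and its mirror were taken from raw counts with Python 3.11.15. Counts were tested in R 4.3.3 with edgeR 4.0.16 (TMM, filterByExpr, quasi-likelihood test, Benjamini-Hochberg adjustment), and genes were called at an adjusted p below 0.05 with a ratio from 1.5 up or from 0.66 down. DESeq2 1.42.0 was an alternative. The code was tested on simulated counts. Other alternatives were RLE size factors, no filter beyond 1 count, the replicate number as a block, each library left out, floors of 2, 3 and 5 counts, 1 count in the other group, thinning to the smallest total and the FPKM columns. Control replicate 2 read in both columns, replicate 3 of both groups left out and the band of 3 to 20 counts were chosen after seeing the data. Applying the rule to 4 libraries and reading the other 2 was tried and is not used, since all 6 libraries chose the genes. Results of some genes are not reported here.

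An expressed gene is one that passed the filter. Named genes were the 25 members with the highest sums, 10 further protein-coding members, up to 5 genes at each end of the threshold, 10 mirror genes, and hosts or neighbours of these. Other protein-coding members were named by their roles after their values were seen, as were neighbours of ENSG00000260947 and copies of members. The members and lists were chosen with earlier results of these data known. RefSeq sequences are from GRCh38.p14.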

Additional observations from a re-analysis of the deposited data

Results flagged for a closer look

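The FPKM column of control replicate 2, which the rule did not use, held reads of 110 of the 181 control-only genes and of 30 of the 51 knockdown-only genes, although the latter had 0 counts in every control library. Of all genes with 3 to 20 counts 64.8% had reads there, and of all autosomal genes with a count 78.2%, so nothing particular to either set is read from it. The cause of the difference between both columns of this library was not tested.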

How the results depend on the processing

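Sizes of both sets depended on the rule by its construction. The 181 control-only genes became 29, 7 and 0 with floors of 2, 3 and 5 counts, 464 with 1 count allowed in the other group, 110 with control replicate 2 read in both its columns, 738 without replicate 3 of both groups, and 337 to 457 with 1 library left out. The 51 knockdown-only genes became 6, 5, 0, 136, 21, 373 and 102 to 176. Thinning (186 and 49.1) and the FPKM columns (233 and 37) kept both sizes within 1.5 times. The genes changed more, since the FPKM sets held only 110 of the 181 and 21 of the 51 genes.

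Shares of lncRNAs, protein-coding genes and pseudogenes lay within the Wilson interval of the whole set with each library left out. Each of those sets held all 181 genes by construction, so this closeness was partly fixed. With floors of 2 and 3 counts lncRNAs made up 55.2% and 28.6% and pseudogenes 13.8% and 14.3%, and with a floor of 3 protein-coding genes made up 57.1% and genes that overlap an expressed gene 71.4%, of 7 genes. With a floor of 5 no gene was left to give a share. With all annotated genes as partners 69.6% overlapped another gene.

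The 4 genes called by edgeR became 916 with no filter, 836 with DESeq2 and 0 to 1628 with 1 library left out, the highest without control replicate 3. Members called rose from 0 to 5 with no filter and were 0 to 1 with 1 library left out, with the 1 only without control replicate 3. Smyca stayed higher in the control in each fit, at 1.49 with no filter (edgeR adjusted p = 0.000646) and 1.51 with DESeq2 (adjusted p = 3.96e-05), both past the threshold. With 1 library left out it was at 1.33 to 1.81, past the threshold only without control replicate 3 (1.52, edgeR adjusted p = 0.0152). With the replicate block 0 genes were called. Correlations of same-numbered libraries were 0.0533, 0.0968 and 0.0291, beside a mean of -0.0284 for the other pairs. Of the 6 libraries 3 correlated best with their own number. Whether same-numbered libraries shared a batch was not tested. The causes of these shifts were not tested. No value with an alternative changed direction, and with a floor of 5 counts both sets were empty. Partner genes as sets and promoters had no alternative. Of the 181 members 152 had a single count in at least 1 control library.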
